A study of Mus musculus with 15 samples.

Results

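The genes described here are those of de novo ceramide synthesis, with the dihydroceramide desaturase gene *Degs2* at their centre, in RNA sequencing of mouse endometrial organoids. They were chosen by name: 10 symbols, *Degs1*, *Degs2*, *Sptlc1*, *Sptlc2*, *Sptlc3*, *Kdsr*, *Cers2*, *Cers4*, *Cers5* and *Cers6*, were matched to the Ensembl identifiers of the expression table, and 9 of them had a row among 16729 genes. *Sptlc3* was not analysed here. *Degs2* was put first because of its values in these same samples, so the levels and differences of the 9 genes are given as a description, without p-values, and whether a gene passed the thresholds used for all genes is stated as part of that description and not as evidence.

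Endometrial organoids are bodies that dissociated uterine epithelial cells form in Matrigel. All mice carried floxed alleles of both genes (Smad2flox/flox; Smad3flox/flox), and the control organoids had no Cre. The *Smad2/3* cKO organoids came from mice that also carried Ltf-cre, in which the lactoferrin promoter drives Cre in uterine epithelium after exposure to estradiol, which the mice received around weaning. A83-01 is a small inhibitor of ALK4, ALK5 and ALK7, the receptor kinases upstream of SMAD2 and SMAD3. It was used at 500 nM against DMSO vehicle. The groups were control + vehicle (n = 3), control + A83-01 (n = 4), *Smad2/3* cKO in vehicle (n = 4) and *Smad2/3* cKO + A83-01 (n = 4). All cultures shared the same growth medium, with WNT3a, R-spondin, Noggin, EGF, FGF10 and HGF and without vitamin A. The mice were adults of a mixed C57BL/6J and 129S5/SvEvBrd background.

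Ceramide, the precursor of sphingomyelin and of the glycosphingolipids, is built on the endoplasmic reticulum. Serine palmitoyltransferase joins serine to palmitoyl-CoA, 3-ketodihydrosphingosine reductase (KDSR) reduces the product, and a ceramide synthase (CERS) adds a fatty acid to give dihydroceramide. Dihydroceramide desaturases finish the pathway: DEGS1 introduces the 4,5-trans double bond that makes ceramide, whereas DEGS2 has both desaturase and C4-hydroxylase activity and also makes phytoceramide, a lipid best known from the skin, intestine and kidney.

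The total of the normalized counts of a sample lay between 20241771 and 24423127, and the samples of a group are organoids labelled as separate replicates. The 6 epithelial marker genes (*Epcam*, *Cdh1*, *Krt8*, *Krt18*, *Krt19*, *Cldn4*) summed to between 79166 and 196400 normalized counts per sample, against at most 200.6 for 7 stromal, 192.5 for 3 smooth muscle and 27.6 for 2 endothelial genes. The 5 leukocyte genes summed to 1261 to 8396, most of it from the lysosomal gene *Cd68*, except in *Smad2/3* cKO replicate 2. *Smad2/3* cKO replicate 2 stood apart with 3372 counts of *Lyz2* and 351 of *Adgre1*, both macrophage genes, where the other samples reached at most 86.9 and 9.01. The Cre targets were not lost at the level of the whole gene: the mean normalized count of *Smad2* was 875 in *Smad2/3* cKO against 1171 in control + vehicle (limma, adjusted p = 0.0656), and that of *Smad3* 1576 against 1624 (adjusted p = 0.827). These are counts per gene and do not show single exons. In bulk samples, more cells expressing a gene and more RNA per cell cannot be told apart.

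*Degs2* (ENSMUSG00000021263) lies on the minus strand of chromosome 12 of GRCm38 from 108678711 to 108702315. Its promoter is shown because *Degs2* was the gene of the pathway with the widest range between groups. The 250 bases before its RefSeq start on GRCm38.p6, chr12:108702307-108702556 on the minus strand, read 5′ to 3′ with each match to the GC box GGGCGG, on either strand, in capitals:

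Degs2 promoter: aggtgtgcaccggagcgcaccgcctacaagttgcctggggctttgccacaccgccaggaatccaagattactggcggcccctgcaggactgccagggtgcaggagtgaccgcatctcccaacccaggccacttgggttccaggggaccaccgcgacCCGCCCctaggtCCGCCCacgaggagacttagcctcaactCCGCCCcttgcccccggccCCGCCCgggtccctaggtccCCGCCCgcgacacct

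The window is 69.2% G and C and holds 5 GC boxes, all written as the reverse complement, and 32.7% of the 32851 mouse promoters of this length hold at least 1. Neither CAGAC, a form of the SMAD binding element, nor GGCGC, a second sequence that SMAD proteins bind, occurs in it on either strand. Of the promoters, 42.2% and 32.0% hold these. Other sequences bound by SMAD proteins were not searched for, among them GGCCG, which the window holds as its reverse complement CGGCC. The shorter AGAC, the end of CAGAC, was not searched for either and occurs in the window. A match or its lack describes only these letters and says nothing of which factors bind.

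*Degs2* was low in untreated control organoids and higher with the inhibitor, with the deletion of *Smad2* and *Smad3*, and with both. In control + vehicle organoids its normalized counts were 123, 30.9 and 126. In control + A83-01 organoids they were 696, 470.3, 3272 and 3174. All 4 treated samples were above all 3 vehicle samples, but they split into a lower pair and a higher pair.

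In *Smad2/3* cKO organoids *Degs2* had 4369.7, 2139, 2243 and 4237 normalized counts. With A83-01 added to *Smad2/3* cKO organoids it had 6423, 7512, 4001 and 7143.5. The *Smad2/3* cKO samples were all above control + vehicle, they overlapped the higher pair of control + A83-01, and the lowest *Smad2/3* cKO + A83-01 sample lay within the range of *Smad2/3* cKO. The group means were 93.4 ± 54.1 (SD, n = 3), 1903 ± 1527, 3247 ± 1222 and 6269.9 ± 1579 (SD, n = 4 each) in this order of groups. The samples of *Smad2/3* cKO overlapped those of both A83-01 groups, which did not overlap each other.

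**Figure D1:**
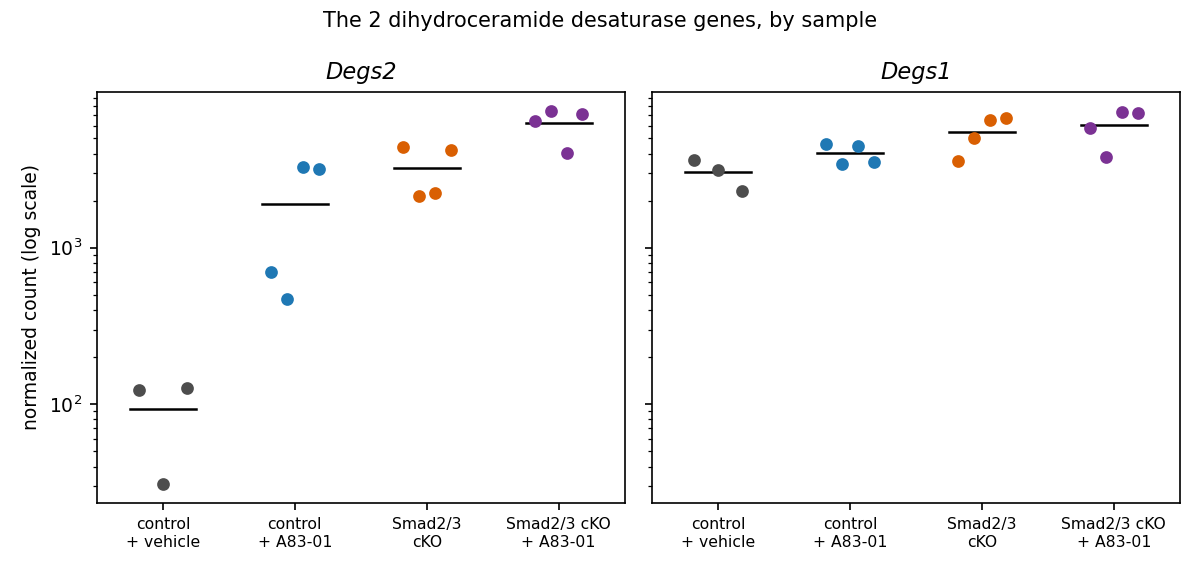
Normalized counts (log scale) of *Degs2* (left) and *Degs1* (right) in each sample of the 4 groups, with horizontal lines at the group means. *Degs2* runs from 30.9 in control + vehicle to 7512 in *Smad2/3* cKO + A83-01, whereas *Degs1* stays between 2303 and 7398.

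The split of control + A83-01 followed the number that each sample's description carries. Replicates 1 and 2, with numbers below 390, were the lower pair, and replicates 3 and 4, with higher numbers, the other. Replicates 1 to 3 carry the same numbers as control + vehicle replicates 1 to 3, and each was set beside the vehicle sample of its number. *Degs2* with A83-01 was 5.66 times its vehicle value in the first of these pairs, 15.2 times in the second and 25.9 times in the third. Within the numbers below 390 the log2 difference of *Degs2* was 3.19 (2 against 2 samples), and within the numbers of 390 or more it was 4.66 (2 against 1). For *Smad2/3* cKO against control + vehicle the same values were 5.60 and 4.60. *Smad2/3* cKO + A83-01 has numbers below 390 only, and against the control + A83-01 samples of those numbers the log2 difference was 3.41. What the numbers mark is not stated.

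On the log2 scale (normalized count plus 1), *Degs2* was higher by 4.10 (standard error 0.78), a ratio of means of 20.4, in control + A83-01 than in control + vehicle. In *Smad2/3* cKO it was higher by 5.27 (0.49), a ratio of 34.8. A83-01 on *Smad2/3* cKO organoids went with a further 0.99 (0.29), a ratio of 1.93, and *Smad2/3* cKO + A83-01 was 2.16 (0.60) above control + A83-01, a ratio of 3.29. The first 2 comparisons share the control + vehicle samples. The log2 effect of A83-01 in *Smad2/3* cKO minus that in control organoids was −3.11 (0.88).

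Genes were counted as past the thresholds when limma's Benjamini-Hochberg adjusted p was under 0.01 and the change was over 1.4-fold either way. With DESeq2 at these thresholds, the authors reported more genes in both comparisons with control + vehicle than limma called here. In control + A83-01 vs. control + vehicle 0 of the 9 genes passed, where 2.27% of the 13009 genes tested did (1.19% higher and 1.08% lower). An unadjusted p below 0.05 was found for 2 of the 9 and for 22.15% of all genes tested. With the replicate number as a block, which follows the shared label numbers of the control samples, 1 gene passed, *Degs2*, with a log2 fold change of 3.69 (standard error 0.40), in a fit that leaves out control + A83-01 replicate 4 for want of a partner. It also passed without control + A83-01 replicate 2. For *Smad2/3* cKO vs. control + vehicle 1 of 9 passed, again *Degs2*, where 7.38% of 13149 genes did (4.08% higher and 3.3% lower), and it passed whichever single sample was left out. Between *Smad2/3* cKO + A83-01 and *Smad2/3* cKO 0 of 8 passed and 1 had an unadjusted p below 0.05. In that comparison limma called 0% of 12998 genes, and 554 genes (4.26%) had an unadjusted p below 0.05. Between *Smad2/3* cKO + A83-01 and control + A83-01 0 of 8 passed by limma, against 0.0232% of 12915 genes. There 2 of the 8 had an unadjusted p below 0.05, as did 9.52% of all genes. For the difference between the A83-01 effects 0 of 8 passed by limma, against 0.551% of 13066 genes (0.0995% higher and 0.452% lower). Here 2 of the 8 had an unadjusted p below 0.05, as did 14.27% of all genes. Since *Degs2* was chosen for this pattern, nothing is read from these counts.

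Markers of other cells were looked at beside *Degs2*. The pan-leukocyte gene *Ptprc* had at least 12.5 and at most 38.5 normalized counts in control + vehicle. The range was 68.5 to 236 with A83-01 in control organoids, 123 to 309 in *Smad2/3* cKO organoids and 119 to 514 with both, so it moved with *Degs2* between groups. Within control + A83-01 it was also lower in replicates 1 and 2 (68.5 and 136) than in replicates 3 and 4 (236 and 230.5). Within *Smad2/3* cKO, replicate 2 had the highest *Ptprc* (309) and the lowest *Degs2* (2139). Within *Smad2/3* cKO + A83-01, replicate 3 had the lowest of both (119 and 4001). Replicate 2 of that group, with its highest *Degs2* (7512), had 161 of *Ptprc*. The 5 leukocyte genes with a row, of 6 listed, summed to 1261 to 2555 in control + vehicle and to 3169.7 to 8396 with A83-01. The sums were 1951 to 7299 for *Smad2/3* cKO and 3841 to 7571 for the combination. Of its other genes, *Adgre1* was at most 9.01 and *Cd79a* at most 45.8, apart from *Adgre1* in *Smad2/3* cKO replicate 2. *Lyz2* was at 41.2 to 70.8 in control + vehicle and lower, at 5.24 to 15.2, in control + A83-01. *Smad2/3* cKO replicate 2, where *Lyz2* and *Adgre1* were high, had the lowest *Degs2* of its group. The smooth muscle genes summed to 55.1 to 192.5 in control + vehicle and to at most 43.5 in each other sample, so they were lower, without overlap, where *Degs2* was higher. Epithelial genes moved too: *Krt8* averaged 47559, 30679.9, 17779.6 and 18857 in the 4 groups, *Krt19* 34246, 22114, 10479 and 11616, and *Cldn4* 4618, 2218, 826 and 1353, while *Epcam* averaged 23268, 25458, 24265 and 24536. The part of these shifts in the level of *Degs2*, or of the sphingolipid genes given later, was not tested.

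*Degs2* shares 278 of its 2583 exonic bases with *Evl*, a regulator of the actin cytoskeleton on the opposite strand, and the library kit is not stated to keep the strand. *Evl* averaged 45.2, 36.6, 61.2 and 63.9 normalized counts in the 4 groups, far below *Degs2* outside control + vehicle.

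*Degs1* (ENSMUSG00000038633), the ubiquitous desaturase, was well expressed in every sample, with smaller differences. It lies on chromosome 1 of GRCm38 from 182275772 to 182282804. Its normalized counts were 3639, 3156 and 2303 in control + vehicle and 4633, 3408, 4491 and 3505 in control + A83-01. They were 3608, 5048, 6591 and 6713 in *Smad2/3* cKO and 5848, 3799, 7398 and 7246 in *Smad2/3* cKO + A83-01. The groups overlapped in all 4 comparisons, with a log2 fold change of 0.41 (standard error 0.20) for A83-01 in control organoids and of 0.84 (0.24) for *Smad2/3* cKO vs. control + vehicle. A83-01 on *Smad2/3* cKO organoids gave 0.14 (0.25).

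Because the annotated exons of both desaturases have nearly the same length, 2591 and 2583 bases, their levels can be set side by side per kilobase of exon. *Degs2* made up 3.15% ± 2.12 (SD, n = 3) of the summed desaturase level in control + vehicle, with 3.28%, 0.97% and 5.21% in the samples. In control + A83-01 it made up 28.8% ± 18.8 (SD, n = 4), from 12.2% to 47.6%. For *Smad2/3* cKO the share was 37.2% ± 13.0, from 25.4% to 54.9%, and in *Smad2/3* cKO + A83-01 50.9% ± 12.8, from 35.2% to 66.5%. Every sample outside control + vehicle thus had a larger share of *Degs2* than every control + vehicle sample, and the other 3 groups overlapped.

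The summed level of both desaturases was 1207 ± 258 normalized counts per kb in control + vehicle, 2284 ± 651 in control + A83-01, 3376 ± 626 in *Smad2/3* cKO and 4771 ± 553 in *Smad2/3* cKO + A83-01. By sample the sum ran from 938 to 1452, 1497 to 3000, 2776 to 4231 and 4374 to 5562 in this order of groups. Only control + A83-01 and *Smad2/3* cKO overlapped. *Degs1* and *Degs2* each overlapped between *Smad2/3* cKO and *Smad2/3* cKO + A83-01, where 2.9% of all genes tested did not. The share without overlap was 21.7% for control + A83-01 and 30.8% for *Smad2/3* cKO against control + vehicle. Between the 2 A83-01 groups it was 6.12%.

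**Figure D2:**
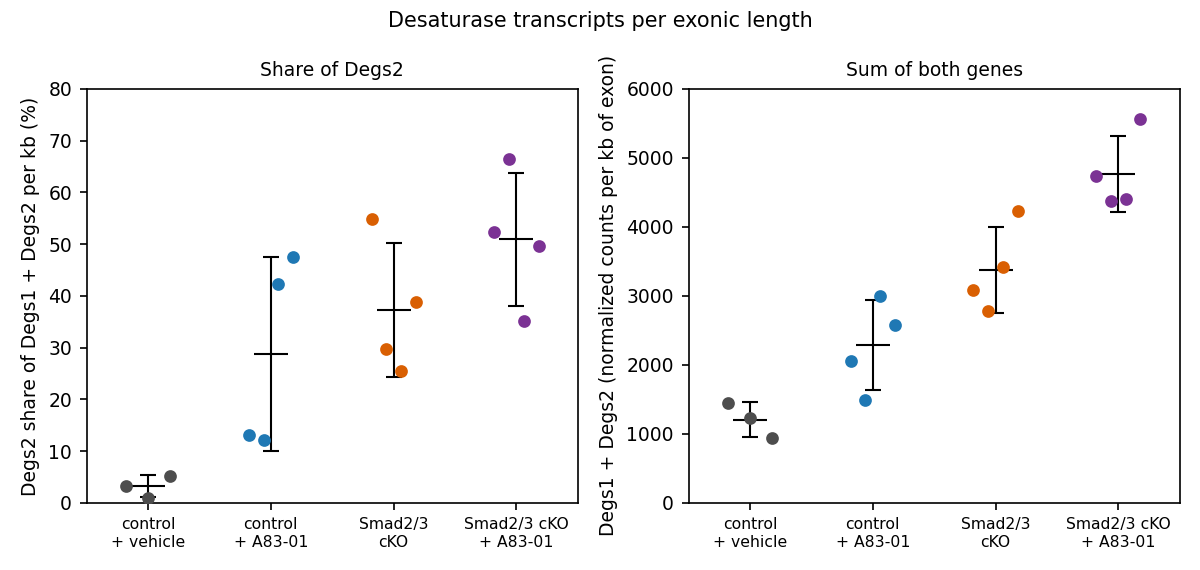
Share of *Degs2* in the summed level of *Degs1* and *Degs2* (left, %) and that sum (right, normalized counts per kb of exon) in each sample, with the mean and SD of each group. The mean share is 3.15% in control + vehicle and 50.9% in *Smad2/3* cKO + A83-01, and the mean sum is 1207 and 4771.

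Set against the rest of the pathway per kilobase of exon, *Degs2* was second from last in control + vehicle and among the 3 highest in *Smad2/3* cKO + A83-01. In control + vehicle the mean levels per kb ran from *Cers2* (1926) and *Degs1* (1170.4) over *Sptlc1* (445), *Sptlc2* (317), *Cers5* (246), *Cers6* (186) and *Kdsr* (141) to *Degs2* (36.1) and *Cers4* (2.56). In that group the ranges of *Cers5* and *Cers6*, and of *Cers6* and *Kdsr*, overlapped. In *Smad2/3* cKO + A83-01 the order was *Degs2* (2427), *Degs1* (2344), *Cers2* (1693), *Sptlc1* (429), *Sptlc2* (374), *Cers6* (335), *Cers5* (198), *Kdsr* (89.4) and *Cers4* (0.21). The ranges of *Degs2* (1549 to 2908), *Degs1* (1466 to 2855) and *Cers2* (1600 to 1753) overlapped there, so the order of these 3 is not beyond the spread of the samples. The ranges of *Sptlc1* and *Sptlc2*, of *Sptlc2* and *Cers6*, and of *Cers6* and *Cers5* overlapped there too.

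The genes of the first step differed by small amounts. *Sptlc1* and *Sptlc2* encode the subunits that form the core of serine palmitoyltransferase. *Sptlc1* had 1542, 1509.9 and 1694 normalized counts in control + vehicle, 1437, 1353, 1432 and 1491 in control + A83-01, 1483, 1337, 1203 and 1396 in *Smad2/3* cKO, and 1665, 1401, 1409 and 1625 in *Smad2/3* cKO + A83-01. Both control + A83-01 and *Smad2/3* cKO lay below control + vehicle without overlap, by small log2 differences of −0.15 (standard error 0.14) and −0.23 (0.13). *Smad2/3* cKO + A83-01 overlapped every other group. *Sptlc2* ranged over all samples from 2321 to 3409.9, with overlap in every comparison and log2 differences between 0.08 and 0.15.

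*Kdsr*, the reductase of the second step, was highest in untreated control organoids. It had 1439, 990.4 and 1028 normalized counts in control + vehicle and 829.2, 675, 516 and 626 in control + A83-01. It had 778, 779.8, 943 and 688 in *Smad2/3* cKO and 751, 608, 726 and 827 in *Smad2/3* cKO + A83-01. All samples of these other groups were below all 3 control + vehicle samples, and they overlapped one another. The log2 fold change was −0.80 (standard error 0.22) for A83-01 in control organoids and −0.52 (0.18) for *Smad2/3* cKO. In the 3 pairs of control samples with a shared number the ratio of A83-01 to vehicle was 0.576, 0.682 and 0.502.

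**Figure D3:**
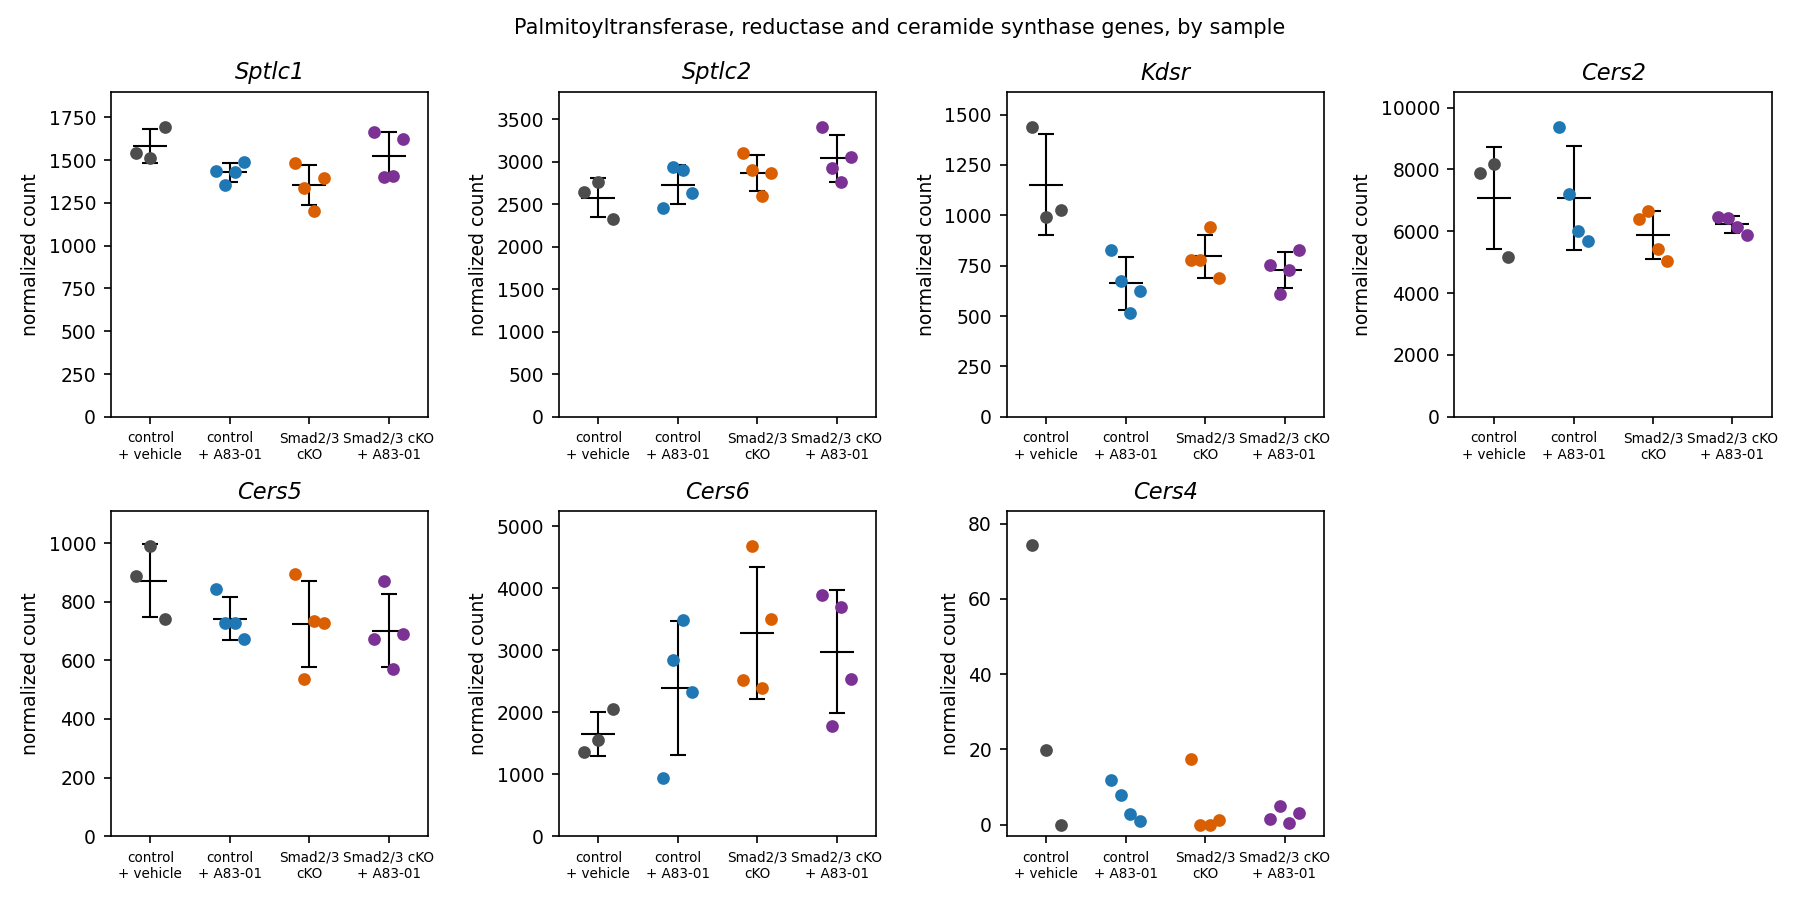
Normalized counts of *Sptlc1*, *Sptlc2*, *Kdsr* and the ceramide synthase genes in each sample of the 4 groups, with the group mean and SD except for *Cers4*, which is at or near 0 in most samples. *Kdsr* is at 990.4 to 1439 in control + vehicle and at 516 to 943 elsewhere, and *Cers2* overlaps in all groups.

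Ceramide synthases differ in the fatty acid they prefer. *Cers2*, whose enzyme adds very long chains, had the highest level of the synthases, with 5029 to 9376 normalized counts over all samples and group means of 7079 ± 1660.2, 7069.7 ± 1673, 5874 ± 771 and 6224 ± 267. The groups overlapped in all comparisons, and 75 of its 3676 exonic bases are shared with *Setdb1* on the opposite strand (and 144 with *6330562C20Rik*). *Cers5*, for palmitoyl chains, ranged from 538 to 990.4, with group means of 873 ± 125, 743 ± 72.4, 724 ± 146 and 701 ± 125.

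*Cers6*, also for palmitoyl chains, differed between *Smad2/3* cKO and control + vehicle by more than *Cers2* and *Cers5* did. It had 1359.8, 1543 and 2047 normalized counts in control + vehicle, 931, 2838, 3480.1 and 2320.1 in control + A83-01, 2515, 4677, 2391 and 3504 in *Smad2/3* cKO, and 3889, 1783, 3688 and 2540.4 in *Smad2/3* cKO + A83-01. *Smad2/3* cKO lay above control + vehicle without overlap (log2 fold change 0.95, standard error 0.25), while control + A83-01 overlapped it (0.40, 0.41). *Smad2/3* cKO replicate 2, with its high macrophage genes, had the highest *Cers6* of its group. Without it the log2 fold change was 0.76.

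*Cers4* was barely detected. It was listed at 74.3, 19.7 and 0 in control + vehicle, at 1.08 to 11.9 in control + A83-01, at 17.6, 0, 0 and 1.3 in *Smad2/3* cKO and at 0.57 to 5.06 in *Smad2/3* cKO + A83-01. It passed the filter on low values only in the comparisons of 2 groups that include control + vehicle, and was below it in the other 2 comparisons and over all 15 samples, where 8 genes were tested. *Cers3*, a ceramide synthase of the skin barrier, had group means between 224 and 262, and *Cers1* was at most 13.6.

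Groups that do not overlap are common in these data, and the pathway is to be read against that. In control + A83-01 vs. control + vehicle 3 of the 9 genes did not overlap (*Degs2* above, *Sptlc1* and *Kdsr* below), and neither did 21.7% of all genes tested (10.3% above and 11.5% below). Comparing *Smad2/3* cKO with control + vehicle, it was 4 of 9 (*Degs2* and *Cers6* above, *Sptlc1* and *Kdsr* below), against 30.8% (14.8% above and 16% below). Adding A83-01 to *Smad2/3* cKO gave 0 of 8, against 2.9% (1.88% above and 1.02% below). *Smad2/3* cKO + A83-01 against control + A83-01 gave 1 of 8, *Degs2*, against 6.12% (3.38% above and 2.73% below). The median log2 fold change of the 9 genes was −0.00 for A83-01 in control organoids and −0.23 for *Smad2/3* cKO, beside −0.01 and 0.00 over all genes tested.

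**Figure D4:**
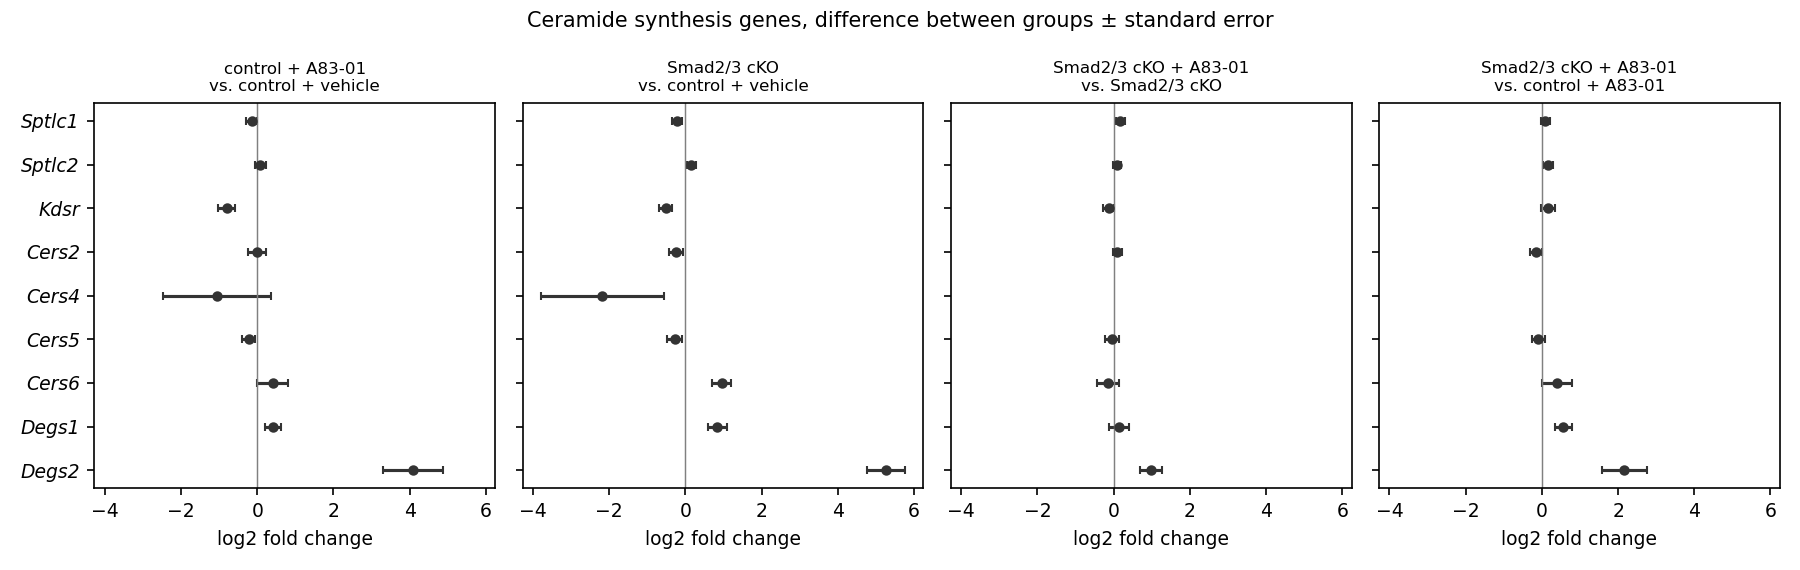
Log2 fold change (normalized count plus 1) with its standard error for the ceramide synthesis genes in the 4 comparisons. *Degs2* lies at 4.10, 5.27, 0.99 and 2.16 from left to right, the other genes well above 0 in count lie between −0.80 and 0.95, and *Cers4*, near 0 in count, has standard errors of 1.41 and 1.61.

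Around the ceramide pathway, 74 further genes of sphingolipid metabolism were listed and 67 had a row. In control + A83-01 vs. control + vehicle 2 of the 62 tested rose and 1 fell, 4.84% against 2.27% of all genes, with a median log2 fold change of 0.02. For *Smad2/3* cKO against control + vehicle 4 rose and 1 fell, 8.06% against 7.38%, with a median of 0.07. In the comparisons of *Smad2/3* cKO + A83-01 with *Smad2/3* cKO and with control + A83-01 0 of 61 passed by limma. An unadjusted p below 0.05 was found for 5 and 15 of the 61, beside 4.26% and 9.52% of all genes.

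*Smpdl3b*, which encodes a sphingomyelin phosphodiesterase-like protein of the cell surface, had 193, 205 and 126 normalized counts in control + vehicle and 1179, 549.7, 849.8 and 1042 in control + A83-01. It had 1324, 852, 1484 and 1353 in *Smad2/3* cKO and 1890.4, 2086, 2008 and 1740.4 in *Smad2/3* cKO + A83-01. All treated or mutant samples were above control + vehicle, and *Smad2/3* cKO + A83-01 was above all other groups. *Smpdl3b* rose by a log2 fold change of 2.34 (standard error 0.30) with A83-01 (limma, adjusted p = 0.00329) and of 2.84 (0.25) in *Smad2/3* cKO (adjusted p = 0.0003). The comparison of *Smad2/3* cKO + A83-01 with *Smad2/3* cKO called no gene. For A83-01 the call of *Smpdl3b* was lost without any 1 of the 3 control + vehicle samples, or without control + A83-01 replicate 3 or 4, and over all alternatives its adjusted p reached 0.0162.

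*Sgpp2*, the phosphatase that returns sphingosine 1-phosphate to sphingosine, rose in the same comparisons. It had 366, 398 and 557 normalized counts in control + vehicle, 1032, 1456, 2271 and 1881 in control + A83-01 and 2188, 1884, 1822 and 3147 in *Smad2/3* cKO. *Smad2/3* cKO + A83-01 had 3000.1, 2268, 2509.6 and 2806. The log2 fold change was 1.88 (standard error 0.28) with A83-01 (limma, adjusted p = 0.00615) and 2.35 (0.23) in *Smad2/3* cKO (adjusted p = 0.000423). For A83-01 the call was lost without any single sample other than control + A83-01 replicate 1, with rescaled totals and without a trend in the variance, and over all alternatives the adjusted p reached 0.0375.

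*Smpd3*, which encodes neutral sphingomyelinase 2, fell. It had 1029, 975 and 1546 normalized counts in control + vehicle and at most 411 in every other sample. Its group means were 1183 ± 315 (SD, n = 3), 195 ± 90.9, 272 ± 123 and 186 ± 48.4 (SD, n = 4 each). The log2 fold change was −2.70 (standard error 0.39) with A83-01 (limma, adjusted p = 0.00498, and 0.0115 with the replicate block, which ended the call). It was −2.20 (0.35) in *Smad2/3* cKO (limma, adjusted p = 0.00399, and 0.0101 with the replicate block, which ended that call too). In that comparison the block joins samples by replicate number alone and leaves out *Smad2/3* cKO replicate 4. With group means removed, samples of equal number had a mean r of 0.056 there, so that fit is not a paired one. Leaving out any 1 of the 3 control + vehicle samples ended both calls of *Smpd3*, as did leaving out control + A83-01 replicate 4 for A83-01 and *Smad2/3* cKO replicate 1 for the deletion. Its adjusted p over all alternatives reached 0.0254 for A83-01 and 0.0181 for the deletion.

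*Ugcg*, the glucosylceramide synthase that starts most glycosphingolipids, had group means of 1379 ± 291 (SD, n = 3), 2579 ± 1051, 3505 ± 885 and 3481 ± 1221 (SD, n = 4 each). It rose in *Smad2/3* cKO by a log2 fold change of 1.33 (standard error 0.23, limma, adjusted p = 0.0053). This call was lost without any single sample other than *Smad2/3* cKO replicate 3. It was also lost with the replicate block (limma, adjusted p = 0.0236), without trend and with all 4 groups in the fit. As for *Smpd3*, this block joins samples by replicate number alone and leaves out *Smad2/3* cKO replicate 4. Over all alternatives the adjusted p reached 0.0282. With A83-01 in control organoids its adjusted p was 0.164.

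**Figure D5:**
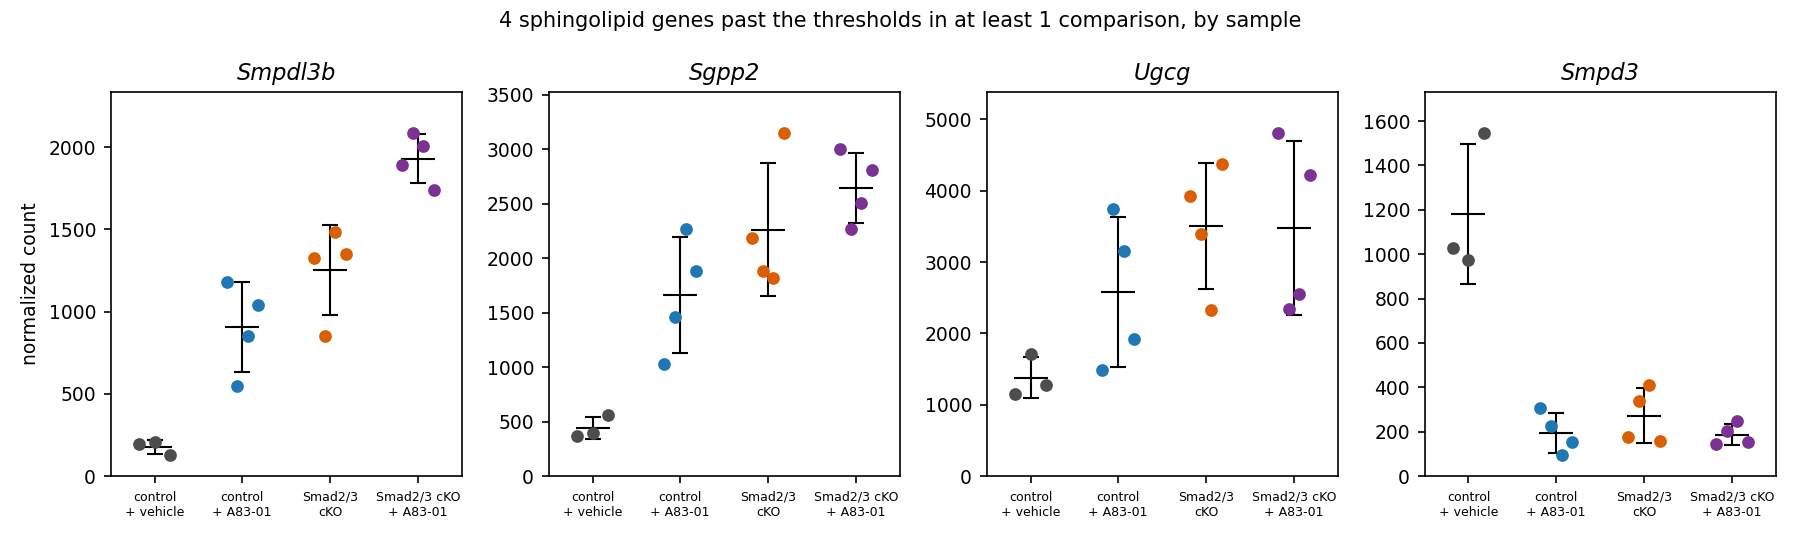
Normalized counts of 4 further sphingolipid genes past the thresholds in at least 1 comparison, in each sample of the 4 groups, with the group mean and SD. *Smpdl3b* and *Sgpp2* are lowest in control + vehicle without overlap, and *Smpd3* is highest there (975 to 1546, against at most 411).

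By branch of the pathway, for *Smad2/3* cKO vs. control + vehicle, 2 of 9 tested genes of sphingomyelin synthesis and breakdown passed (1 higher, 1 lower), 1 of 9 of sphingosine 1-phosphate metabolism, 1 of 7 of glycosphingolipid synthesis and 1 of 12 of glycosphingolipid breakdown. Over all genes tested, 33.72% had an unadjusted p below 0.05 in limma and 30.8% did not overlap between the groups. In glycosphingolipid breakdown 8 of the 12 genes had such a p, and 8 did not overlap (66.7%). For sphingomyelin synthesis and breakdown it was 6 and 6 of 9 (66.7%), and for sphingosine 1-phosphate metabolism 6 and 5 of 9 (55.6%). Glycosphingolipid synthesis had 2 and 1 of 7 (14.3%). Of all 62 listed genes tested, 28 did not overlap (45.2%). In the same comparison 0 of 4 small subunits and regulators of serine palmitoyltransferase passed (log2 fold changes of 0.11 to 0.63), 0 of 4 ceramidases (−1.50 to 0.07), 0 of 5 genes of ceramide transfer and phosphorylation (−0.33 to 0.43), 0 of 11 genes of fatty acid elongation and hydroxylation (−1.89 to 0.79) and 0 of 1 other synthase gene, *Cers3* (−0.21). In these last 5 groups limma gave an unadjusted p below 0.05 for 2, 1, 2, 5 and 0 genes, beside 33.72% of all genes.

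The genes whose log2 levels followed *Degs2* most closely over the 15 samples, among 13058 genes, were *Arhgef10l*, a guanine nucleotide exchange factor (Pearson r = 0.98), *Lifr*, the receptor of leukemia inhibitory factor (0.98), *Dpysl5*, a cytosolic protein of developing neurons (0.98), *Ifi30*, a lysosomal thiol reductase (0.98), and *Sntg2*, a syntrophin (0.97). These points share 4 groups, and with the group means removed r was 0.91, 0.87, 0.88, 0.82 and 0.85. The genes were picked by r over these same samples, so the second r is no independent check. The split of *Degs2* within control + A83-01 remains in both, and its part in them was not tested. *Lifr* averaged 919 ± 572 (SD, n = 3) in control + vehicle, 6228 ± 4313 in control + A83-01, 9650.4 ± 2221 in *Smad2/3* cKO and 12836 ± 2093 in *Smad2/3* cKO + A83-01 (SD, n = 4 each). *Sntg2* averaged 35.1 ± 27.4, 750.2 ± 651, 814 ± 319 and 1423 ± 499.9. These correlations are a description over samples chosen by group and carry no p.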

How the data were processed

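RNA of endometrial organoids (15 samples, grouped by their GEO labels) was sequenced by the authors after SMART-Seq v4 cDNA synthesis. The authors estimated counts with Salmon 1.4.0 on GRCm39 and used DESeq2 1.32.0, per the labels and methods. The deposited signal behaves as an estimated count normalized by median ratios (median ratio to the geometric mean of each gene 1.01137 throughout). Whether transcript lengths per sample also entered the normalization is not stated, and this ratio cannot tell. Of values below 10 in a sample, 1.1% to 4.2% lay within 0.01 of a whole number, so count models were not used. The methods give an approximate target depth only, the table holds no read total of each sample, and depth limits genes near 0 such as *Cers4*. Positions and exonic lengths are from GENCODE M21 and the promoter from RefSeq, both GRCm38.

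Each comparison was fitted on its 2 groups, and the difference of A83-01 effects on all 15 samples, with limma 3.58.1 (eBayes with trend, R 4.3.3) on log2 of the normalized count plus 1, a scale that understates changes of low genes. Genes with a mean of at least 10 were tested, with Benjamini-Hochberg adjustment over all of them. The fit was tested on simulated data. P-values weigh a difference of group means against the spread between these samples, which limma moderates over all genes. Members and lists were chosen with earlier results of these data known. Named are all pathway genes, listed sphingolipid genes past the thresholds (1 of those counted is not reported here) and the 5 genes most correlated with *Degs2*. Markers, *Smad2*, *Smad3*, *Evl*, *Setdb1*, *6330562C20Rik*, *Cers1* and *Cers3* are named for values beside a result.

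Control + A83-01 replicates 1 to 3 carry the label numbers of control + vehicle replicates 1 to 3. After removal of group means these pairs had r of 0.354 to 0.423, against a mean of −0.133 for other combinations. They were taken as paired, although what the numbers mark is not stated. The replicate block is given where it changes a call. *Smad2/3* cKO replicate 1 carries the number of control replicate 1, although its genotype differs. *Smad2/3* cKO replicate 2 shares its number with *Smad2/3* cKO + A83-01 replicate 1. Alternatives were a pseudocount of 10, no filter, a minimum mean of 50, quantile normalization, rescaled totals, no trend, the block, the number series (below 390 or not), all 4 groups, an adjusted p below 0.05, and leaving out each sample.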

Additional observations from a re-analysis of the deposited data

Results flagged for a closer look

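In 48 groups of 4 samples examined by Dixon's criterion (critical value 0.829), 3 single samples lay far from the rest, and chance gives about 1 in 20 groups. *Cers4* was 17.6 in *Smad2/3* cKO replicate 1 against 0 to 1.3 in the others. *Smad2* was 1211 in *Smad2/3* cKO + A83-01 replicate 2 against 804 to 854, and *Smad3* was 797 in the same sample against 1648 to 1689. That sample also had the highest *Degs2* (7512) and the lowest *Degs1* (3799) of its group.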

How the results depend on the processing

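Over all alternatives 42 log2 fold changes of the ceramide genes gave 766 values, of which 762 moved by less than the spread between replicates, 4 moved by more and 0 reversed while called. For control + A83-01 vs. control + vehicle the count of all genes went from 295 to 443 with the number series, 655 with all 4 groups in the fit, 955 at an adjusted p below 0.05 and 425 with the replicate block. The ceramide genes went from 0 to 1 with the replicate block, the number series, all 4 groups and the looser p, and the listed genes from 3 to 1 without trend, 5 with all 4 groups and 7 at the looser p. For *Smad2/3* cKO vs. control + vehicle all genes went from 970 to 452 without trend, 201 with the block and 2410 at the looser p, the ceramide genes from 1 to 3 at the looser p, and the listed genes from 5 to 8 with rescaled totals or all 4 groups, 3 without trend or with the block, and 21 at the looser p. For *Smad2/3* cKO + A83-01 vs. control + A83-01 all genes went from 3 to 1 without trend, 0 with the block, 72 with the number series and 5 with all 4 groups, and the ceramide genes from 0 to 1 with the number series, under which the log2 fold change of *Degs2* was 3.41 in place of 2.16. For the difference of the A83-01 effects the looser p gave 208 genes in place of 72 and 2 listed genes in place of 0. Without trend the calls of *Sgpp2* and *Smpd3* for A83-01 and of *Ugcg* and *Smpd3* for *Smad2/3* cKO were lost. In the comparisons with *Smad2/3* cKO samples the replicate numbers share only a number, and the mean r of equal numbers was 0.056, 0.130 and −0.021. Leaving out 1 sample gave 49 (without control + vehicle replicate 2) to 312 genes, 0 to 1 ceramide genes and 0 to 3 listed genes for A83-01 in control organoids, 280 (without control + vehicle replicate 1) to 992, 1 and 3 to 8 for *Smad2/3* cKO vs. control + vehicle, 0 throughout for *Smad2/3* cKO + A83-01 vs. *Smad2/3* cKO, 0 to 4, 0 and 0 against control + A83-01, and 39 to 77, 0 and 0 to 1 for the difference of effects. The log2 fold change of *Degs2* then lay between 3.44 and 4.61, 4.61 and 5.61, 0.82 and 1.19, 1.66 and 2.59, and −3.62 and −2.45 in the 5 comparisons. Rescaling to the median total shifted the median of all genes by −0.109 on the log2 scale for A83-01 in control organoids and by less elsewhere. The causes of these changes were not tested.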
